A study of Homo sapiens with 9 samples.

Results

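The clustered protocadherins were taken as the protein-coding genes whose GENCODE symbol is PCDHA, PCDHB, PCDHGA, PCDHGB or PCDHGC, or the C type of the alpha family (PCDHAC), followed by a number, which gave 53 of the 60609 gene identifiers counted. They are 15 alpha, 16 beta and 22 gamma genes, and on GRCh38 they lie on the plus strand of chromosome 5, from PCDHA1 (chr5:140786136-141012347) to PCDHGC5 (chr5:141489081-141512975). RNA was sequenced, per the labels' protocols after removal of ribosomal RNA, from U2-OS cells, an established human osteosarcoma line grown in DMEM with serum. The labels' molecule entry, in contrast, is polyadenylated RNA. The 9 libraries came from 5 clones of this line. Clone A1 and clone A4 overexpress NCBP2, the cap-binding subunit of the nuclear cap-binding complex, and gave 3 libraries each, lettered A, B and C. The 3 vector libraries, also lettered A, B and C, represent an empty-vector clone each. Values of a group are listed below in the order A, B, C. The labels do not say whether the libraries of a clone were separate cultures, so p-values measure only the spread between these libraries, which may be technical within a clone. With 2 clones in the NCBP2 arm, a property of a clone and the overexpression cannot be told apart.

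Clustered protocadherins are cell-surface proteins of the cadherin superfamily, best known in neurons, where each cell uses a small set of them and like sets bind each other between membranes, so that branches of one neuron recognise and avoid one another. Each alpha and gamma variable exon has its own promoter and is spliced to constant exons shared by its cluster, whereas most beta genes are a single exon. Most promoters carry a conserved element around the bases CGCT, which binds CTCF, and promoter choice depends on CTCF, cohesin and DNA methylation, with SMCHD1 acting as a repressor. U2-OS cells are not neurons, and the levels below describe a mixed population of cells: fewer cells using an isoform and less RNA of it per cell cannot be told apart in bulk RNA.

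The promoter elements of the members that the results turn on are shown first, because the families differ in the bases around the box. RefSeq promoter windows (GRCh38.p14, 250 bases before to 50 after an annotated start) were matched by symbol for 47 of the 53 genes, and 46 of these windows held CGCT with enough flanking sequence, all but that of PCDHA9. CGCT on either strand is common, being present in 70.0% of all 35116 windows of the same length, so any family likeness lies in the flanks. Each line gives 26 bases of the plus strand, 5′ to 3′, with the box in capitals. Where a window held several boxes, the one most like those of the same family was taken.
PCDHB5: gacgcctggtggCGCTgcaggctaag
PCDHB2: gacgcggggtggCGCTgcagccttag
PCDHB10: gccacacggtggCGCTgcaggctaaa
PCDHB8: gacccgtggtggCGCTgcaggataag
PCDHB16: aacgcgtggtggCGCTgcaggttaag
PCDHB13: gacgcgtggtggCGCTgcaggataag
PCDHB14: gacacatggtggCGCTacaggataag
PCDHB12: gacgcgtggtggCGCTgcaggataat
PCDHB1: ggggagttgagtCGCTcaatgcaaat
PCDHA10: gccaccggatgtCGCTgtcgtccaca
PCDHGC3: gactctgtgtgcCGCTgtcggccaat

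The elements of PCDHB8 and PCDHB16, neighbouring beta genes, were identical at 23 of 26 bases, and those of PCDHB8 and PCDHB13 at 25 of 26. The stretch chosen in PCDHB1 matched PCDHB8 at 13 of 26 bases and the best boxes of the other beta windows at 12.6 on average. Whether it is a promoter element like the others was not tested. Over all pairs, the median number of identical bases was 21 within the beta family, 18 within alpha and 19 within gamma, and 14 between any 2 families. Boxes were chosen for likeness to their own family, which raises the numbers within families, so these medians are descriptions only. The string GTGGCGCTG, searched on both strands, was in 12 of 14 beta windows, in no alpha or gamma window, and in 0.572% of all windows. PCDHB14 and PCDHB1 were the beta windows without it. GATGTCGCT was in 9 of 13 alpha windows and 0.105% of all windows, and CGCCGCTGT was in 9 of 20 gamma windows and 0.604% of all windows. These 3 strings contain or overlap CGCT and were chosen after the windows had been read, so their counts are descriptions.

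The longer windows up to the box are given for the members with the lowest edgeR adjusted p in clone A4 against vector. They are PCDHB8 (chr5:141177673-141177806), PCDHB16 (chr5:141182206-141182339) and PCDHA10 (chr5:140855737-140855870), and other members had larger log2 differences. All are on the plus strand of GRCh38.p14 with the box in capitals.
PCDHB8: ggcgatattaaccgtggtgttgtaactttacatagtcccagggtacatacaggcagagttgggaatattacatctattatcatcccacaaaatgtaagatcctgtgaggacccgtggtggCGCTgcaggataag
PCDHB16: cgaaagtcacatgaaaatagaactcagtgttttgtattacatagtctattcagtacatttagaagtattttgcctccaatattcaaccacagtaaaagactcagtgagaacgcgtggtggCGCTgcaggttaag
PCDHA10: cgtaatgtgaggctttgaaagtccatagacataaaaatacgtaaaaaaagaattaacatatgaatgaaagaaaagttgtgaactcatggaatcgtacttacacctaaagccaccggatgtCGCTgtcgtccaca

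Counts in genes were fewest in clone A1 replicate A (29234022) and most in vector replicate B (50554080), of which the 53 genes held 11300 to 26783 counts, or 0.0273% to 0.0596%. Clone A1 replicate A had the fewest counts and the largest share of reads outside counted genes (63.6%, against 44.5% to 58.1% in the other libraries). Levels are given as CPM, the counts scaled to a common library total. NCBP2 stood at 299, 348 and 305 CPM in clone A1, at 796, 1035 and 456 CPM in clone A4, and at 98.4, 90.6 and 98.3 CPM in the vector libraries, so every library labelled NCBP2 was above every vector library. Of 7 mesenchymal and osteoblast markers, SPARC, VIM, COL1A1 and RUNX2 were abundant in all libraries, while SP7 and COL1A2 were at or near 0. The 7 summed to 3687 to 4518 CPM in clone A1, 4360 to 5357 in clone A4 and 5145 to 6008 in vector. VIM was at 1302 to 1757 CPM in the NCBP2 arm and at 2004 to 2082 in vector, without overlap. The 6 neuronal markers summed to 14.5 to 25.3 CPM in the vector libraries and 15.2 to 21.4 in the NCBP2 arm. ELAVL4, TUBB3 and SYP were each below 2 CPM, whereas SNAP25 was at 9.41 to 15.9 CPM in the NCBP2 arm and 6.66 to 9.06 in vector libraries, without overlap.

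Because alpha and gamma genes share their constant exons, a read on those exons fits several genes and is not assigned to any of them. The alpha and gamma values therefore rest on unshared exon, mostly the variable exons. Levels between genes are compared per kilobase of exon that no other gene shares on that strand in GENCODE release 44. PCDHA10 is an exception, with separate unshared blocks of 5341, 4661, 253 and 100 bases. PCDHAC2 and PCDHGC3 also have small further blocks. Similar sequence within variable exons also limits what is counted. The share of 50-base windows that occur once on either strand of the main chromosomes of GRCh38 had a median of 90.3% over the 53 genes and was lowest, at 54.7%, in PCDHB8. With 100-base windows the lowest share was 74.5%, again in PCDHB8, whose closest relative, PCDHB13, held 30.7% of its 50-base windows. PCDHB8 and PCDHB16 shared 8.19% of the 50-base windows of PCDHB8.

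Most of the 53 genes were transcribed in every clone. With a minimum of 10 counts, 43 of the 53 were detected in all 9 libraries, namely 12 of 15 alpha, 13 of 16 beta and 18 of 22 gamma genes. In all 3 libraries of clone A4 this minimum was met by 52 genes, in all 3 of clone A1 by 45, and in the vector clones by 50 (replicate A), 51 (replicate B) and 48 (replicate C). The total depended on the minimum, with 46 genes at 5 counts and 39 at 20 counts. PCDHB1, which is separated from the other beta genes, was below 10 counts in 8 of the 9 libraries and reached 25 counts only in clone A4 replicate A. PCDHGC4 and PCDHGC5, the last genes of the gamma cluster and C-type isoforms, ranged from 0 to 47 and from 0 to 40 counts.

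The beta family dominated. Its share of the counts of the 53 genes was 66.2% to 74.8% across the 9 libraries, with a mean of 68.9% ± 2.81 (SD, n = 9), against 15.3% ± 1.75 for alpha and 15.7% ± 1.86 for gamma. Per kilobase of unshared exon the beta share was 64.9% to 74.3%. The beta shares of the NCBP2 clones and of the vector clones overlapped, at 67.8% ± 1.58 (SD, n = 3) in clone A1, 69.6% ± 4.55 (SD, n = 3) in clone A4 and 69.4% ± 2.34 (SD, n = 3) in vector. The summed level, by contrast, separated clone A4 from vector. In clone A4 the 53 genes summed to 493, 609 and 369 CPM, compared with 398, 379 and 286 for clone A1 and with 321, 337 and 279 for vector. All clone A4 libraries were above all vector libraries, and clone A1 overlapped them.

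**Figure D1:**
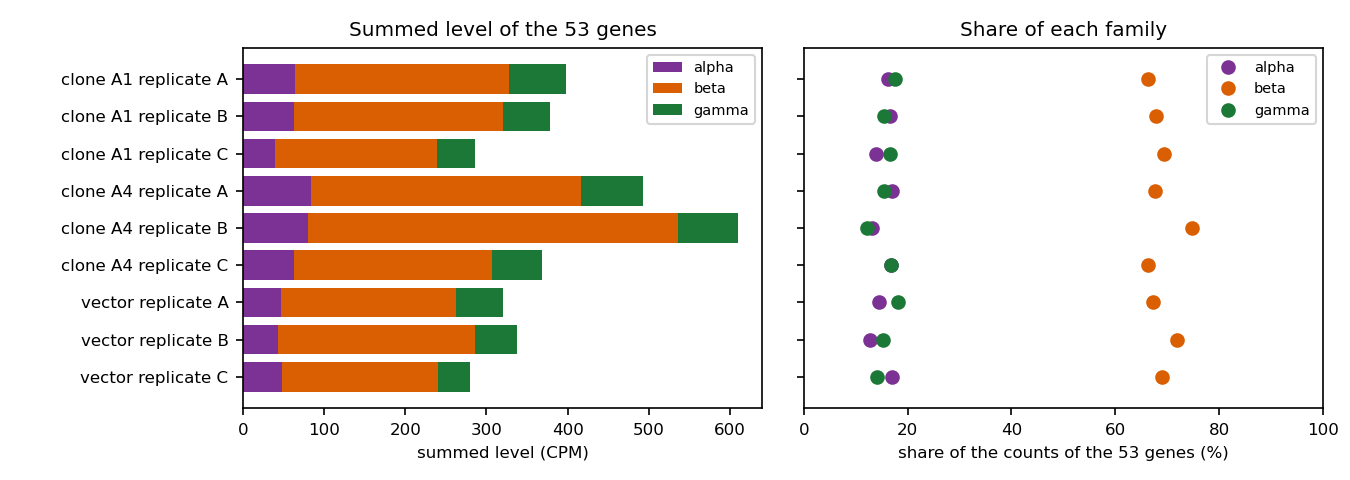
Left, summed level in CPM of the alpha, beta and gamma genes in each library (stacked bars). Right, the share of each family in the counts of the 53 genes (points, in percent). Beta genes hold 66.2% to 74.8% in every library, and the longest bar is clone A4 replicate B at 609 CPM.

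Within the beta family a few genes carried most of the signal. PCDHB5 had the highest level per length in each of the 9 libraries, with a mean of 17.2 CPM per kilobase, and was followed by PCDHB2 (11.8), PCDHB11 (9.90), PCDHB10 (6.02), PCDHB8 (5.72), PCDHB14 (5.10), PCDHB16 (4.89) and PCDHB13 (3.72). PCDHGC3, a C-type gamma isoform known for broad expression outside neurons, was ninth at 3.38 CPM per kilobase, and PCDHB12 followed at 3.12. PCDHA12, the alpha gene of highest level per length, stood at 2.91. Across libraries PCDHB5 ranged from 13.5 to 26.4 CPM per kilobase, PCDHB2 from 7.63 to 21.3 and PCDHB11 from 5.75 to 15.4, and from PCDHB2 down to PCDHB12 the range of each gene overlapped that of the next. The 5 most counted genes held 45.5% to 55.5% of the cluster's counts. The median gene was at 3.42 CPM per kilobase in the beta family, 0.68 in alpha and 0.57 in gamma.

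**Figure D2:**
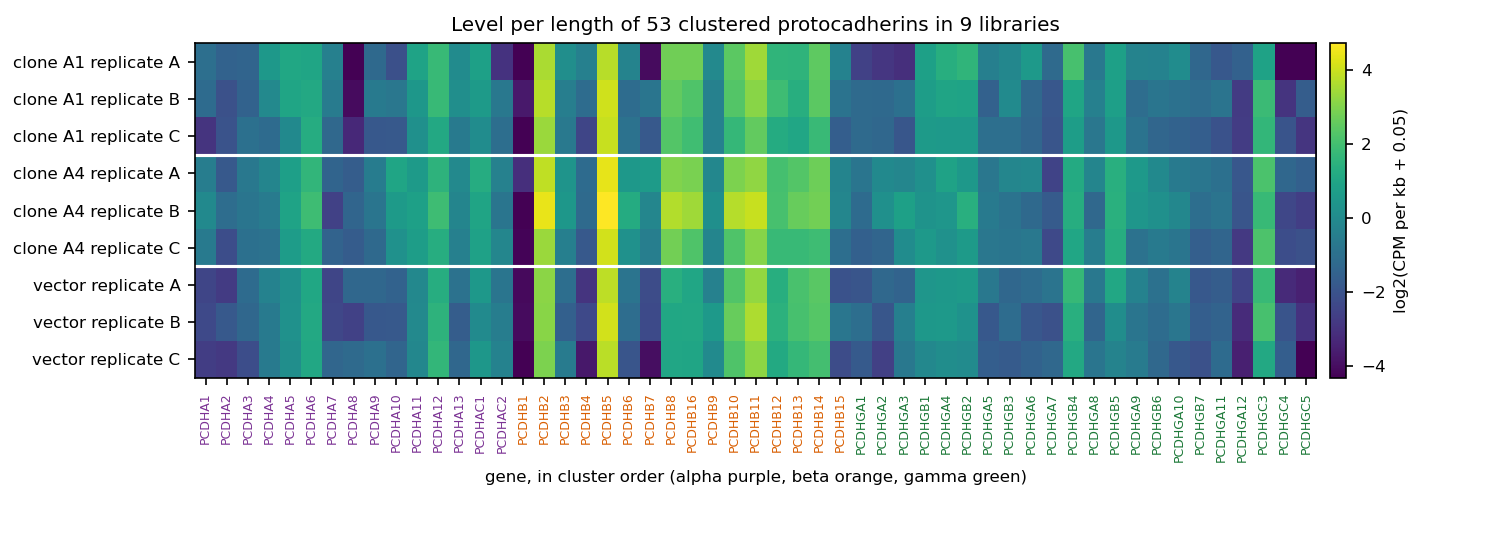
Level per length, as log2(CPM per kilobase of unshared exon + 0.05), of the 53 genes in cluster order (columns) in the 9 libraries (lines of the map). PCDHB2, PCDHB5 and PCDHB11 are bright in all libraries, with PCDHB3, PCDHB4, PCDHB6, PCDHB7 and PCDHB9 darker between them, and PCDHA8, PCDHB4, PCDHB7, PCDHGC4 and PCDHGC5 vary from dark to intermediate.

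The isoform profile was alike but not equal between clones. Across the 53 genes, Spearman's rho of the level was 0.882 to 0.903 between the libraries of clone A1, 0.933 to 0.953 between those of clone A4, 0.889 to 0.912 between the 3 vector clones, and 0.801 to 0.923 between libraries of different groups. These are correlations across genes, which are not independent replicates, and all pairs share the same gene lengths. The clone with the highest mean level was A4 for 33 of the 53 genes, and the clone with the lowest was that of vector replicate C for 30. Clones A1 and A4 enter as means of 3 libraries and each vector clone as 1 library, so the ranks are not on an equal footing. The same counts over all genes are not given here.

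Against vector, the comparison of the whole NCBP2 arm asked whether the cluster differed with NCBP2 overexpression. Of the 52 genes that passed the filter on low counts (PCDHB1 did not), 44 were higher and 8 lower in the arm. Their median log2 difference was 0.50, against 0.02 over all 21682 genes tested. By edgeR's quasi-likelihood test with Benjamini-Hochberg adjustment over all genes, 0 of 52 passed an adjusted p of 0.05 (0.0184% of all genes did), whereas DESeq2 called 2 and limma-voom with library weights 2. At an unadjusted p under 0.05, 12 of 52 were higher and 0 lower, where 2.75% of all genes were higher and 2.96% lower. In 7 of the 52 genes all 6 NCBP2 libraries were above all 3 vector libraries, which held for 1.47% of all genes, and in 0 were they all below, which held for 2.26%. The lowest adjusted p, 0.123, belonged to PCDHB8, with a log2 difference of 1.78 (SE 0.30), followed by PCDHB16 with 1.65 (SE 0.32, adjusted p = 0.15). These were the 2 genes that DESeq2 and limma-voom called. The share of all genes that these tools called is not given here or below, so their counts have no background beside them. All of these fits treat the 6 libraries of 2 clones as replicates. With counts summed per clone, so that the clone is the unit, edgeR called no member.

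Clone A4 held the changes that passed the test. PCDHB8 and PCDHB16, adjacent beta genes (chr5:141177790-141180539 and chr5:141182387-141186226), rose against vector, and no member fell. They were 2 of 52 members tested, where 0.115% of all genes passed in either direction and 0.0231% rose. At an unadjusted p under 0.05, 17 members were higher and 0 lower, against 2.5% of all genes higher and 2.75% lower. In direction, 47 were higher and 5 lower, with a median log2 difference of 0.68 against 0.03 over all genes, and with medians of 0.86 in beta, 0.61 in alpha and 0.62 in gamma. In 23 members all 3 clone A4 libraries were above all vector libraries, which held for 6.2% of all genes, and in 0 members were all below (5.86% of all genes).

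PCDHB8 had 965, 1412 and 775 counts in clone A4, 483, 543 and 523 in clone A1, and 296, 263 and 206 in vector. In CPM these were 20.2, 32.1 and 17.4 in clone A4, 17.0, 14.6 and 12.3 in clone A1, and 6.41, 5.13 and 5.03 in vector. Every library of either NCBP2 clone was above every vector library. The means were 23.2 ± 7.83 CPM (SD, n = 3) in clone A4, 14.6 ± 2.35 (SD, n = 3) in clone A1 and 5.52 ± 0.77 (SD, n = 3) in vector. The log2 difference from vector was 2.07 in clone A4 (SE 0.28, edgeR adjusted p = 0.0123) and 1.40 in clone A1 (SE 0.27, adjusted p = 0.113). The difference in clone A1 did not pass. The difference between the clones themselves was 0.67 (SE 0.27, adjusted p = 0.660).

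PCDHB16, the next gene along the cluster, had 1291, 1724 and 764 counts in clone A4, 695, 638 and 590 in clone A1, and 340, 388 and 292 in vector. Its levels were 27.1, 39.2 and 17.1 CPM in clone A4, 24.5, 17.2 and 13.9 in clone A1, and 7.37, 7.57 and 7.12 in vector. The vector libraries lay close together and below all others, while the 2 NCBP2 clones overlapped. The log2 difference from vector was 1.92 in clone A4 (SE 0.31, edgeR adjusted p = 0.0410) and 1.33 in clone A1 (SE 0.31, adjusted p = 0.211). Both calls in clone A4 depended on the vector clones, since no member passed when either vector replicate A or vector replicate C was left out, and the adjusted p over the fits that leave out 1 library ranged from 0.00889 to 0.102 for PCDHB8 and from 0.0152 to 0.217 for PCDHB16. Leaving out replicate A or B of clone A4, or replicate B of vector, left 1 call, PCDHB8, and PCDHB16 also missed the threshold without clone A1 replicate B. PCDHB16 missed it as well in edgeR fitted on only the libraries compared and in counts without regard to strand. Of 16 alternative fits of clone A4 against vector, PCDHB8 passed in 14 and PCDHB16 in 8.

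PCDHA10 is named together with PCDHA8, PCDHB6, PCDHB7, PCDHB13 and PCDHGA3 after their values were seen (PCDHB13 is also among the 10 highest by level per length). PCDHA10 (chr5:140855883-141012347), an alternate alpha isoform, had 955, 674 and 527 counts in clone A4, 54, 210 and 106 in clone A1, and 149, 126 and 141 in vector. Its levels were 20.04, 15.3 and 11.8 CPM in clone A4, 1.90, 5.65 and 2.49 in clone A1, and 3.23, 2.46 and 3.44 in vector. Clone A4 stood above all other libraries, and clone A1 overlapped vector. The log2 difference of clone A4 was 2.37 from vector (SE 0.40, edgeR adjusted p = 0.0526) and 2.23 from clone A1 (SE 0.40, adjusted p = 0.0665), neither of which passed. DESeq2, limma-voom with library weights and edgeR without a filter on low counts called both differences, and edgeR fitted on only the libraries compared called that from vector (adjusted p = 0.0216). Over the fits that leave out 1 library, the adjusted p ranged from 0.0164 to 0.324 against vector and from 0.0233 to 0.339 against clone A1. Its length of unshared exon in GENCODE, 10355 bases, is the second longest of the alpha genes, so its level per length, 0.71 CPM per kilobase on average, is low. Because this length includes a separate block of 4661 bases, its counts need not all come from its variable exon.

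For PCDHA8, another alternate alpha isoform, the clone that stood apart was A1. Clone A1 had 0, 1 and 6 counts, whereas clone A4 had 33, 39 and 30 and vector had 43, 16 and 42. The groups A4 and vector overlapped, and clone A1 lay below every one of their libraries. The log2 difference of clone A1 from vector was fitted at -3.59 (SE 1.03, edgeR adjusted p = 0.329), a value that depends on the prior count because a library is at 0. The unshared exon of PCDHA8 is also among the least unique, with 72.0% of 50-base windows occurring once.

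PCDHB7 and PCDHB6, beta genes just before PCDHB8 in the cluster, were low in vector. PCDHB7 had 271, 139 and 113 counts in clone A4, 1, 72 and 38 in clone A1, and 28, 30 and 2 in vector, so that it varied strongly within clone A1 and between vector clones. Its log2 difference of clone A4 from vector was 3.18 (SE 0.98, edgeR adjusted p = 0.522). PCDHB6 had 212, 333 and 164 counts in clone A4, 71, 49 and 66 in clone A1, and 75, 69 and 28 in vector, with a log2 difference of clone A4 from vector of 2.10 (SE 0.46, adjusted p = 0.184). All clone A4 libraries exceeded all others for both genes. PCDHB5, the most abundant member, differed far less, at 71.6, 89.9 and 58.0 CPM in clone A4 against 48.2, 58.0 and 47.2 in vector, a log2 difference of 0.52 (SE 0.19, adjusted p = 0.733).

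**Figure D3:**
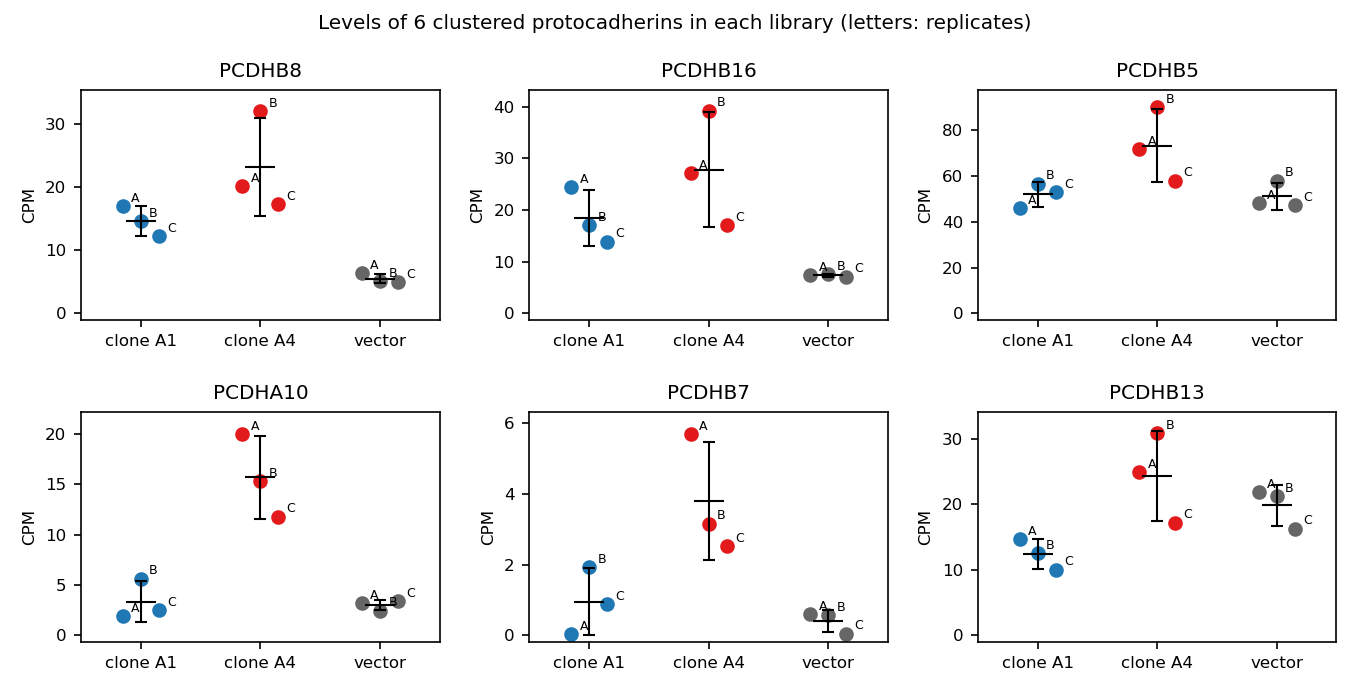
Level in CPM of 6 members in each library (points, lettered by replicate) with the mean and SD of each group (black bars, n = 3). PCDHB8 and PCDHB16 lie above vector in both NCBP2 clones, PCDHA10 in clone A4, and PCDHB13 is lower in clone A1 than in the other groups.

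In clone A1, 39 of 52 members were higher than in vector and 13 lower, with a median log2 difference of 0.32 against -0.02 over all genes. By edgeR's adjusted p, 0 of 52 passed (0.0646% of all genes did), while DESeq2 called 3 (PCDHA8, PCDHB8 and PCDHB16) and limma-voom with library weights 2 (PCDHB8 and PCDHB16). At an unadjusted p under 0.05, 7 were higher and 2 lower, against 3.24% and 4.27% of all genes. The groups did not overlap for 9 higher members (6.18% of all genes) and 2 lower members (8.06%). The 2 lower members were PCDHA8 and PCDHB13, the latter at 14.7, 12.5 and 10.0 CPM in clone A1 against 21.9, 21.3 and 16.3 in vector, a log2 difference of -0.68 (SE 0.26, adjusted p = 0.535). PCDHB13 is the closest relative of PCDHB8 in sequence, and its clone A4 levels of 24.9, 30.8 and 17.2 CPM overlapped vector.

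Between the NCBP2 clones, 41 of 52 members were higher in clone A4 and 11 lower, with a median log2 difference of 0.42 against 0.04 over all genes. By edgeR 0 of 52 passed (0.161% of all genes did), DESeq2 called 3 (PCDHA8, PCDHA10 and PCDHGA3) and limma-voom 2 (PCDHA10 and PCDHB13). At an unadjusted p under 0.05, 9 were higher (3.81% of all genes) and 0 lower (2.82%). The clones did not overlap for 12 members higher in clone A4 (7.92% of all genes) and 2 lower (5.72%). PCDHGA3, a gamma A isoform, had 107, 204 and 121 counts in clone A4 and 5, 46 and 25 in clone A1, and its log2 difference was 2.24 (SE 0.63, edgeR adjusted p = 0.341). The comparisons of clone A1 and clone A4 with vector share the vector libraries, so values in both clones are given side by side and no likeness between them is drawn from this.

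**Figure D4:**
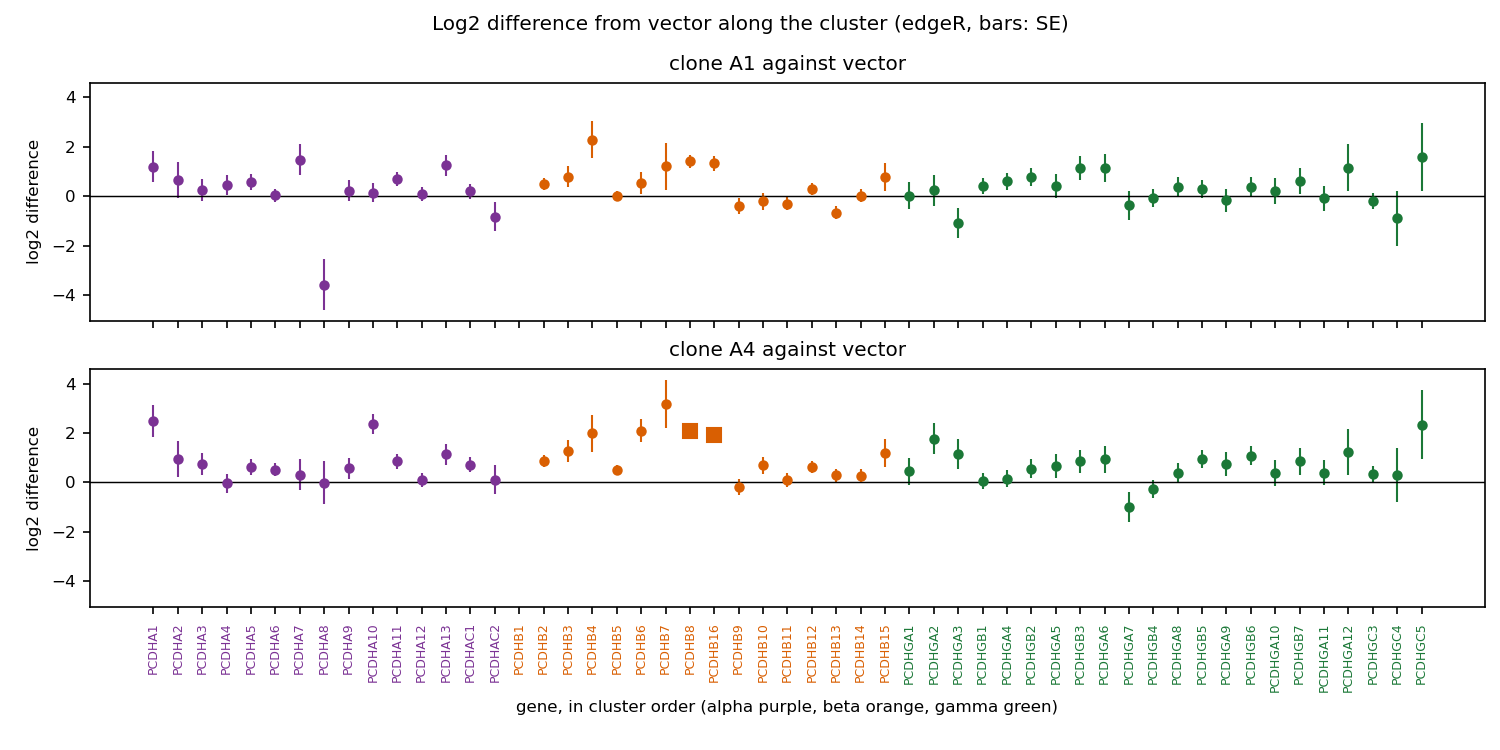
Log2 difference from vector (edgeR, bars are SE) of clone A1 (top) and clone A4 (bottom) for the 52 members tested, in cluster order, with PCDHB1 left blank. Larger squares mark members past an adjusted p of 0.05, which are PCDHB8 and PCDHB16 in clone A4.

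A test for any difference among the 5 clones, treating each vector library as its own clone, called 0 of 53 members by edgeR (0.097% of 25782 genes passed), 10 at an unadjusted p under 0.05 (5.03% of all genes), 5 by DESeq2 and 0 by limma-voom. PCDHA10 and PCDHB8 had the lowest adjusted p, 0.109 each. In that fit the spread rests on the libraries of clones A1 and A4 alone, since each vector clone has 1 library. Without clone A1 replicate A, 3 members passed, namely PCDHA10, PCDHB7 and PCDHB8.

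Genes around the cluster had a median difference near 0. Of 38 protein-coding neighbours within 1 Mb, 30 were tested, and their median log2 difference from vector was -0.04 in clone A4 and -0.07 in clone A1, with 0 past edgeR's adjusted p in either clone and with 0 (clone A4) and 2 (clone A1) at an unadjusted p under 0.05. In clone A1, 1 neighbour was higher and 1 lower at that threshold, against 3.24% and 4.27% of all genes. DESeq2 called 0 of the neighbours in either clone, and limma-voom 0 in clone A4 and 1 in clone A1. TAF7, a general transcription factor gene that lies between the beta and gamma clusters, was at 51.1 to 60.3 CPM in all 9 libraries, with a log2 difference of 0.00 in clone A4 (SE 0.15, edgeR adjusted p = 0.9997). Pseudogenes inside the cluster were closer to the members. PCDHB18P, named after its values were seen, was at 9.46, 10.4 and 5.84 CPM in clone A4, 8.90, 10.5 and 5.29 in clone A1, and 3.08, 2.99 and 2.32 in vector, without overlap between NCBP2 and vector libraries. Its log2 difference of clone A4 from vector was 1.61 (SE 0.34, edgeR adjusted p = 0.168), and 4 of 5 pseudogenes were higher in clone A4 with a median of 1.11. PCDHB18P and PCDHB17P passed in clone A4 by both DESeq2 and limma-voom.

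Known regulators of the cluster did not pass the test. Of 23 listed, all were tested, and 0 passed edgeR's adjusted p in clone A4, clone A1 or the arm. DESeq2 and limma-voom also called 0 of them in these 3 comparisons. At an unadjusted p under 0.05 by edgeR, 2 were higher in clone A4, where 2.5% of all genes were. In clone A1, 1 was higher and 1 lower, against 3.24% and 4.27% of all genes. In the arm 3 were higher, against 2.75% of all genes. These were LRIF1, TET1 and DNMT3B, named after their values were seen. Their log2 differences were 2.02 (SE 0.85), 0.69 (SE 0.22) and 0.40 (SE 0.16), with edgeR adjusted p of 0.820, 0.577 and 0.784. LRIF1 had only 4 to 49 counts per library. CTCF, which binds the CGCT element, was at 127 to 170 CPM in all libraries, with a log2 difference of -0.10 in clone A4 (SE 0.17, adjusted p = 0.9997). SMCHD1 ranged from 143 CPM (vector replicate B) to 588 CPM (clone A1 replicate A), so that its spread within groups exceeded the log2 difference of -0.14 in clone A4 (SE 0.36, adjusted p = 0.9997). Among 21 tested partners and processing enzymes of protocadherins, such as the kinase, WAVE complex and gamma-secretase genes, the median log2 difference in clone A4 was 0.05, and among 10 non-clustered protocadherins it was -0.03. The 14 cadherins tested had a median of -0.09. None of these 3 lists held a gene past edgeR's adjusted p in clone A4, and DESeq2 and limma-voom called 0. At an unadjusted p under 0.05 they held 0, 0 and 2 (1 higher and 1 lower, against 2.5% and 2.75% of all genes). In clone A1 edgeR also called 0 genes of these 3 lists. At an unadjusted p under 0.05, they held 2, 1 and 0 higher and 1, 1 and 5 lower, against 3.24% and 4.27% of all genes. DESeq2 and limma-voom, however, each called 3 cadherins lower in clone A1, CDH6 and CDH13 by both, and PCDH10 higher. CDH6 had a log2 difference of -2.98 in clone A1 (SE 0.71, edgeR adjusted p = 0.231) and PCDH10 one of 4.57 (SE 1.37, adjusted p = 0.356), both named after their values were seen. Of the 6 neuronal markers, 5 were tested, with a median of -0.31 in clone A4 and 0 past edgeR's adjusted p (1 higher and 1 lower at an unadjusted p under 0.05). DESeq2 called 0 of these markers in clone A4 and limma-voom 1, SNAP25. In the NCBP2 libraries SNAP25 was higher without overlap, while VIM and 1 of the neuronal markers were lower without overlap. Limma-voom called VIM in clone A4, where its edgeR adjusted p was 0.345. The part of these genes in the result was not tested.

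The alpha genes differed from the rest of the cluster on the opposite strand. Antisense transcription from alpha variable exons has been described in neurons, where it is linked to promoter choice. Over the 9 libraries, PCDHA2 to PCDHA12 held 18181 counts on their own strand and 4493 on the opposite one, or 19.8% of both together, and the other 42 members held 0.437%. The share lay between 16.6% and 24.5% in each library. It was 57.3% in PCDHA3, 52.4% in PCDHA2, 38.1% in PCDHA11, 26.7% in PCDHA10 and 18.6% in PCDHA4. The other genes from PCDHA2 to PCDHA12 ranged from 2.46% in PCDHA6 and 3.80% in PCDHA12 to 15.3% in PCDHA9. PCDHA1, counted with the other 42 members, was at 7.95% (405 own-strand and 35 opposite-strand counts). That is above PCDHA6, PCDHA12 and PCDHA7 (7.79%), so the limits of this set, which were not fixed beforehand, are not sharp. The share was 0.46% in PCDHA13, 0.0817% in PCDHAC1 and 0.40% in PCDHAC2 at the end of the cluster. Beta genes were at 0.346% and gamma genes at 0.741%. Among 14692 protein-coding genes with at least 90 stranded counts in all, the median was 1.17% and 19.8% of genes were above 10%. A high share is thus not particular to the alpha cluster, and no test was made.

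In PCDHA10 the strands differed unequally between groups. The opposite strand had 153, 186 and 142 counts in clone A4, 120, 118 and 83 in clone A1, and 112, 88 and 72 in vector, a far smaller difference between groups than on the gene's own strand. The opposite share was accordingly 18.2% in clone A4, 46.5% in clone A1 and 39.5% in vector, over the pooled libraries of each. The choice of strand also matters for counting. Without regard to strand, PCDHA1 has 0 counts in all libraries, whereas it has 405 on its own strand, and the alpha share of the cluster's counts becomes 17.8%. PCDHB2 has 8173 counts without regard to strand against 18483 on its own strand, and PCDHB16 has 5851 against 6722. With the counts without regard to strand, the members past the test in clone A4 were PCDHB8 and PCDHA10 in place of PCDHB8 and PCDHB16.

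**Figure D5:**
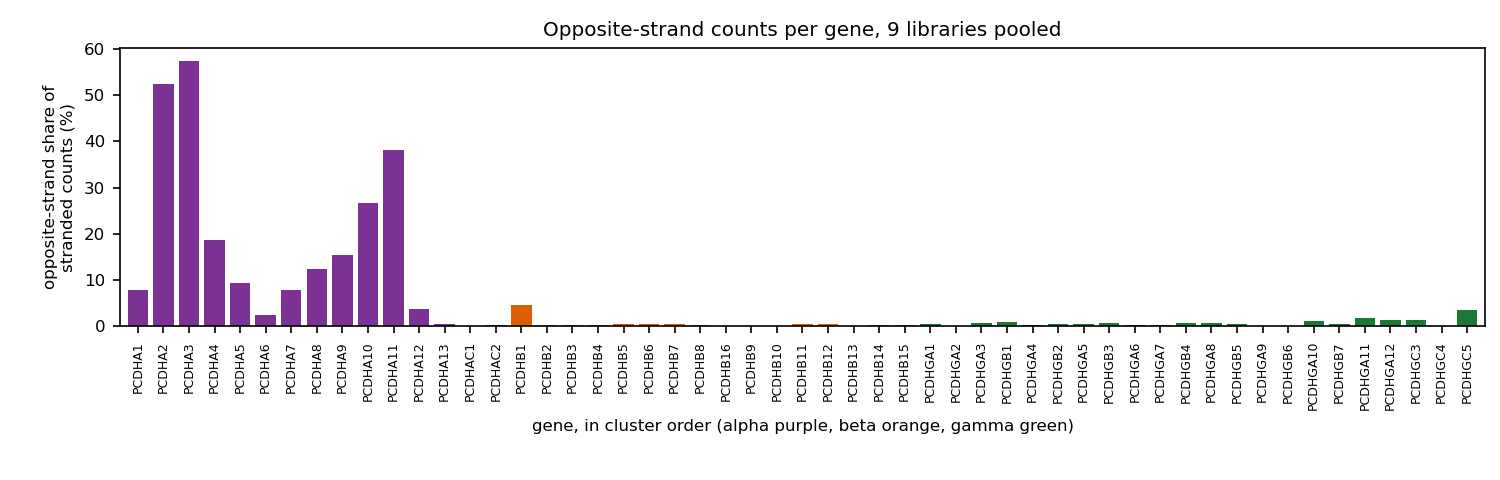
Opposite-strand share of stranded counts (percent, 9 libraries pooled) of the 53 genes in cluster order. The tallest bars are those of PCDHA2, PCDHA3, PCDHA10 and PCDHA11, up to 57.3% for PCDHA3, while beta and gamma bars reach at most 4.65% (PCDHB1, on 43 counts).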

How the data were processed

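The authors deposited raw read counts per gene and library, as whole numbers with no normalization. Reads were aligned with STAR 2.7.1a to GRCh38, per the submitters' processing notes, while the counting program, annotation and filters are not given in the sources used here. Each table holds counts without regard to strand and for each strand, and the column holding most stranded counts was taken as the gene's strand. The 4 lines that name no gene (44.5% to 63.6% of reads) were left out. Reads that fit several genes or places are not in the counts, and no molecular identifiers were used, so counting error understates the true error.

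Symbols, classes and lengths came from GENCODE release 44, which may not be the annotation used for counting: 60295 of 60609 identifiers matched, and 29 of 53 members had the same identifier version. CPM used TMM-scaled library sizes. Differences were tested with edgeR 4.0.16 in R 4.3.3 (quasi-likelihood, robust, filterByExpr), two-sided, with Benjamini-Hochberg adjustment over all genes. A 2-group fit compared the NCBP2 arm with vector, a 3-group fit the clones, and a 5-group fit all clones. The fits were tested on simulated data. Alternatives were DESeq2 1.42.0, its size factors, no filter, limma-voom (limma 3.58.1), unstranded counts, summing per clone, only the libraries compared, a replicate block and leaving out each library. Named members were those past the threshold or among the 10 highest by mean level per length. The members and lists were chosen with earlier results of these data known.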

Additional observations from a re-analysis of the deposited data

Results flagged for a closer look

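Among the 6 NCBP2 libraries, the beta share of the cluster's counts was 74.8% in clone A4 replicate B, against 69.4% in the next library, a gap of 0.629 of the whole range and above Dixon's critical value for 6 samples. It was the 1 flag among 15 quantities checked in this way (the summed level, the 3 family shares and the levels of 11 members), and chance flags about 1 in 20 groups. The 6 libraries come from 2 clones, so they are not a single group of replicates.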

How the results depend on the processing

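The median log2 difference of the members stayed positive in all alternatives, and over the fits that leave out 1 library it was 0.42 to 0.59 for the arm, 0.23 to 0.49 for clone A1, 0.57 to 0.76 for clone A4 and 0.22 to 0.56 between the clones. The number of members past the adjusted p did depend on the setting. Without a filter on low counts it was 2 for the arm, 2 for clone A1, 5 for clone A4, 2 between the clones and 5 among the 5 clones. With DESeq2 these were 2, 3, 6, 3 and 5, and with limma-voom 2, 2, 4 and 2 for the first 4. The share of all genes called in the same fits is not given, so whether the added calls are particular to the members was not tested. Leaving out 1 library gave 0 to 0 for the arm and clone A1, 0 to 3 for clone A4, 0 to 1 between the clones and 0 to 3 among the 5 clones. At an unadjusted p under 0.05, limma-voom gave 26 members for clone A4 and 18 between the clones, and leaving out 1 library gave 9 to 21 for clone A4, 5 to 13 between the clones and 4 to 15 among the 5 clones. The shares of all genes in these fits are not given, so these counts show only how far the setting matters.

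PCDHA10 in clone A1 against vector, 0.14 on the log2 scale, became -0.47 without clone A1 replicate B. The alpha and beta shares became 17.8% and 65.2% in counts without regard to strand, and the gamma share became 18.6% per kilobase. Counts without regard to strand include opposite-strand reads, and they also leave out many own-strand counts of PCDHB2 (8173 against 18483). The causes were not tested.

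Replicate letters were not taken to pair the libraries, because deviations of libraries with the same letter correlated at over 0.1 in 6 of 9 pairs and not in all (range -0.10 to 0.18). A library correlated best with the one of its own letter in 8 of 18 comparisons with another group. With a replicate block, 3 members passed in clone A4 (PCDHA10, adjusted p = 0.0398, besides PCDHB8 and PCDHB16) and 7 among the 5 clones, where 13.8% of all genes had an unadjusted p under 0.05; the arm, clone A1 and the difference between the clones had 0. Depth limits the low members most: 10 of 53 had under 10 counts in at least 1 library.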
